A study of Danio rerio with 25 samples.

Results

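Whole-embryo transcript levels after exposure to 0.9 μg/L citalopram were compared with those of unexposed zebrafish embryos. All transcripts listed for this comparison were taken, 31187 of the 32963 listed at any of the 4 concentrations tested, together with 10 of the 25 libraries of the series. The 5 treated libraries came from wild-type embryos kept in citalopram hydrobromide, in 0.3x Danieau solution, until 24 hours post-fertilization (hpf), then rinsed, returned to clean solution and harvested at 48 hpf. The 5 control libraries came from wild-type embryos kept in 0.3x Danieau solution alone and harvested at the same age. The start of exposure is 0 hpf in the sample titles, and a slightly later start is given by the study's methods. Each library was made from the total RNA of 50 pooled embryos, so it averages over all tissues and over 50 animals, and nothing given with the samples says whether libraries came from separate clutches. The p-values given here therefore measure the spread between pools. All 25 libraries carry the same batch date, so the labels name no batch that separates the groups.

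Citalopram is a selective serotonin reuptake inhibitor. It blocks the serotonin transporter, the membrane protein that carries released serotonin back into neurons, and so prolongs serotonin signalling. In vertebrate embryos serotonin also acts before synapses form, on cell movement and on the growth of neurons, and the comparison asks which transcripts still differed after a day without the drug. A concentration of 0.9 μg/L was chosen by the study to represent effluent of wastewater treatment plants.

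What was deposited for each transcript is the mean normalized count of either group, that is, the mean over 5 libraries of estimated read counts divided by a size factor for each library's depth. The means alone carry no replicate error. They are printed to 15 digits, and at low levels they fall on steps set by the 5 size factors of a group, so that the 5 whole counts behind a mean could be solved for. This was done for transcripts with a mean over both groups under 200 normalized counts, 54.2% of those listed, and counts were settled for 16904 of 16911 transcripts. For 144 control means several sets fitted, and the control means listed with the other concentrations decided between them. The control counts could be checked, since the same 5 control libraries are behind the means of the other 3 tables with other size factors, and all 16559 sets that could be checked gave the means printed there. Size factors ran from 0.857 to 1.22 among the citalopram libraries and from 0.808 to 1.38 among the control libraries. Libraries are numbered here from the largest to the smallest size factor of their group, and these numbers are not the replicate numbers of the samples. No 2 libraries of a group were the same library deposited again, since their counts differed by 7.29 to 17.6 times the counting variance. Values above 200 normalized counts are given as the authors' means, with no replicate check.

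The files name transcripts by Ensembl ID, and 0 of the 31187 IDs could be paired with a gene symbol. Genes, pathways, chromosome positions, tissues and marker genes could therefore not be read from these values, and 4 IDs, 2 in each direction, stand for the rest. Transcripts of 1 gene share reads, and the counting tool splits them by estimate. A change in 1 transcript is therefore not shown to be a change in the gene. A library is said here to hold reads of a transcript where its estimated count is above 0. A count of 0 means that no reads were assigned to the transcript, not that none could have come from it. In whole embryos, fewer cells of a type and less RNA per cell cannot be told apart.

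Most transcripts stood at nearly the same normalized level in both groups. Among the 31121 transcripts with a mean above 0 in both, the median log2 ratio of citalopram to control was -0.00032. The median absolute log2 ratio was 0.091, and 95.7% lay within 0.6 of 0. Dividing by size factors places the centre of the ratios near 0, so a shift shared by most transcripts could not be seen. The most abundant transcript averaged 2590380 normalized counts in the treated libraries against 2587950 in the controls, a log2 ratio of 0.0014, and took 9.36% of all control counts. The largest difference between the means in normalized counts was that of another very abundant transcript, at 384156 with citalopram and 356227 in control, a log2 ratio of 0.11. The log2 ratios of the 10 largest differences lay between -0.20 and 0.21. Large differences in counts thus came from transcripts whose proportional difference was small.

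A log2 ratio above 0.6 was seen for 651 transcripts, 2.09% of the 31121, and a log2 ratio below -0.6 for 690 transcripts, 2.22%. Beyond 1 on the log2 scale there were 263 higher and 254 lower. These are counts of ratios between means, with no test. The ratios extended from -4.62 to 4.91, and both extremes lay at low levels.

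**Figure D1:**
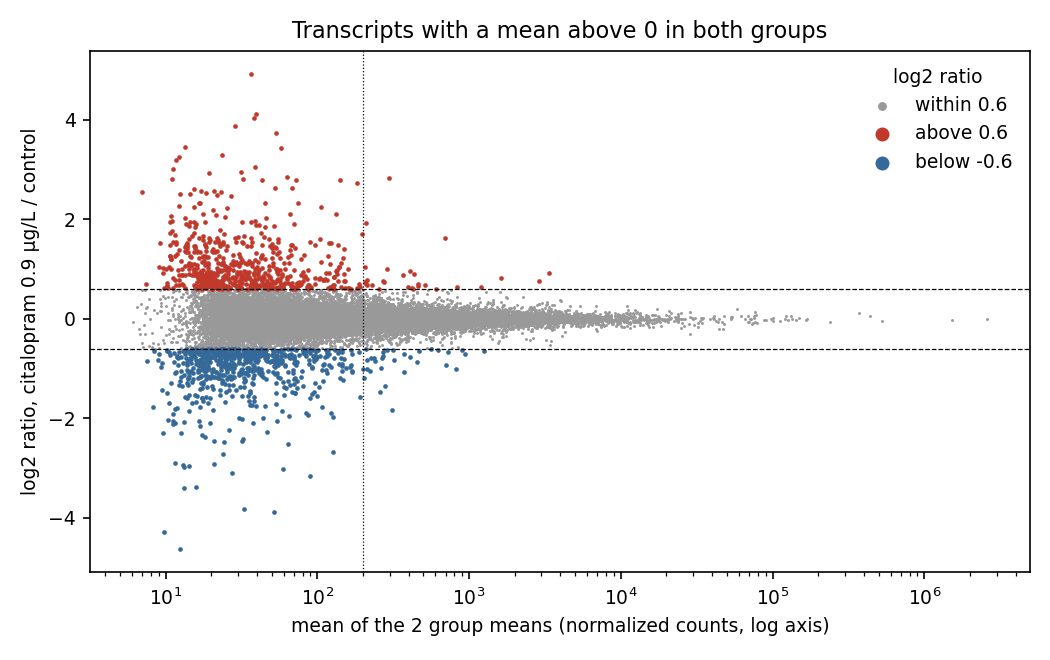
Log2 ratio of the mean with citalopram 0.9 μg/L to the mean in control (vertical axis) against the mean level over both groups in normalized counts (horizontal log axis), 1 point for each of the 31121 transcripts present in both groups. Red points lie above 0.6 (651) and blue points below -0.6 (690), the dashed lines mark these limits, and the dotted line at 200 normalized counts marks the level under which counts per library were recovered. Points past the limits crowd to the left of that line, and the cloud narrows to the right.

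How far a ratio lay from 0 followed the level of the transcript. Under 20 normalized counts, 40.1% of 943 transcripts were past 0.6 in either direction. Between 20 and 50 normalized counts the share was 10.1% of 5836, and between 100 and 200 it was 1.94% of 5147. From 2000 normalized counts upwards it was 0.107% of 1861, that is, 2 transcripts, both higher with citalopram. The spread between libraries of a group followed the same order. The median standard deviation of log2(normalized count + 1) within a group was 2.06 under 20 normalized counts, 0.54 between 20 and 50, 0.40 between 50 and 100 and 0.32 between 100 and 200. Every transcript with recovered counts had at least 26.9 normalized counts in at least 2 libraries. One with a mean under 20 therefore had to be uneven between libraries to be listed. How much of the share and of the spread at that level came from the listing was not tested. In total 1282 of the 1341 transcripts past 0.6 stood under 200 normalized counts, where both the ratios and the libraries scattered most.

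**Figure D2:**
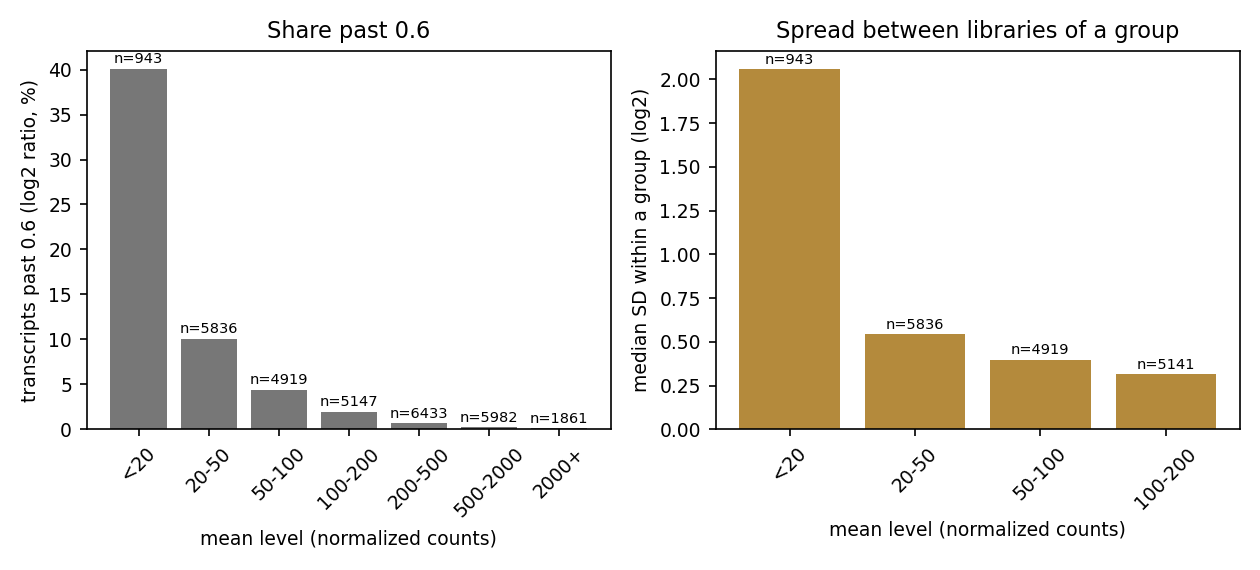
Left, share of transcripts past a log2 ratio of 0.6 in either direction (%) by mean level in normalized counts, with the number of transcripts over each bar. Right, median standard deviation between the 5 libraries of a group on the log2(normalized count + 1) scale, for the 4 levels at which counts were recovered. Both fall with the level, the share from 40.1% to 0.107% and the standard deviation from 2.06 to 0.32.

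At 500 normalized counts or more, 16 of 7843 transcripts were past 0.6, 8 higher and 8 lower. The highest-level one of these averaged 4419 normalized counts in treated and 2326 in control libraries, a log2 ratio of 0.93. The next had means of 3642 and 2157, a log2 ratio of 0.76. The largest log2 ratio at this level was 1.62, from means of 1051 and 342.0, and the lowest was -1.01, from means of 540.5 and 1092. These are the transcripts for which counting error is least, but their counts per library were not recovered, so whether 1 library sets the ratio is not known.

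The libraries did not separate by treatment on the first and second principal components of the recovered counts. Transcripts from 200 normalized counts upwards were not part of these components. On the recovered counts, the first principal component held 24.2% of the variance and the second 13.1%. Citalopram library 2 and control libraries 3 and 4 stood at the high end of the first component, at 108, 83.8 and 73.5, and the other 7 libraries lay between -76.2 and 21.1. These 3 libraries come from both groups, so the largest axis of variation was shared by treated and control pools. On the second component, citalopram library 2 and control library 5 stood apart from the rest, at 86.8 and 85.9.

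**Figure D3:**
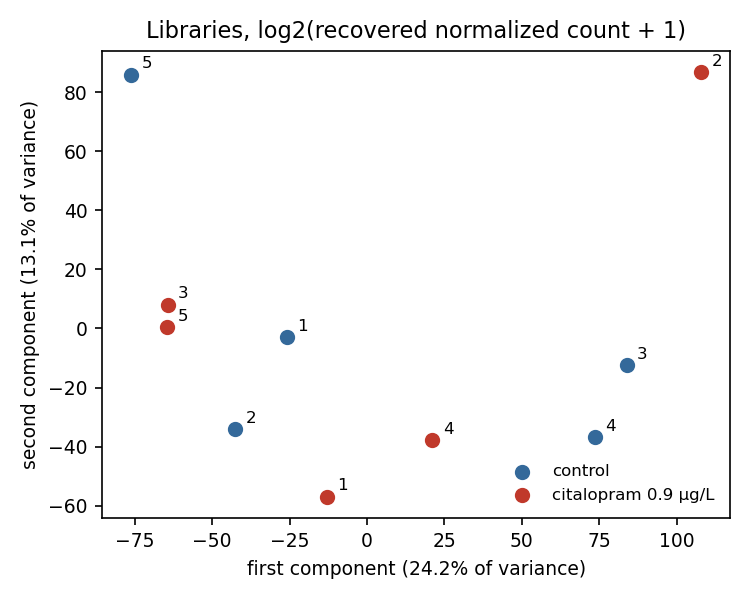
First and second principal components of log2(recovered normalized count + 1) over 16904 transcripts, 1 point a library (5 citalopram in red, 5 control in blue), numbered by falling size factor within a group. Both groups spread along both components. Citalopram library 2 and control libraries 3 and 4 lie to the right.

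The recovered counts were then tested transcript by transcript with limma on log2(normalized count + 1). At an adjusted p of at most 0.05 (Benjamini-Hochberg), 2 of 16904 transcripts were called, 0.0118%, both lower with citalopram and none higher. Both were at 0 in every citalopram library and so were listed only through the control libraries. Such transcripts had to differ in this direction to be listed, and the p-values of both are given as a description, not as support. An unadjusted p under 0.05 was given to 278 transcripts, 1.64% of those tested, 145 of them higher and 133 lower. Evenly spread p-values would give a share of 0.05, so small p-values were not in excess. With voom weights in place of the plain log2 values, limma called 0 transcripts and gave 252 an unadjusted p under 0.05, so both calls depended on this choice.

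ENSDART00000187968.1 had the smallest p by limma and was listed only through the control libraries. Its counts were 97, 175, 251, 255 and 179 in control libraries 1 to 5 and 0 in each of the 5 citalopram libraries. All control libraries held many reads and no citalopram library held any, so the groups did not overlap. In normalized counts the control mean was 201 ± 81.7 (SD, n = 5), and the libraries ran from 70.4 to 272. Against a floor of 3 counts over the citalopram group, the level was at least 334-fold lower with citalopram, a bound that covers counting error only and is 66.9-fold with a floor of 3 counts in each library. The limma difference was -7.51 ± 0.47 (SE) on the log2(normalized count + 1) scale, with an adjusted p of 8.7e-05. With all 5 citalopram libraries at 0, the difference depended on the pseudocount, and was -8.51 with 0.5 and -5.23 with 5. Leaving out a citalopram library could not move the difference. The adjusted p stayed at 0.0032 or less when any 1 library was left out, and was 1.0 with voom weights.

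ENSDART00000125258.3 showed the same pattern at a lower level. Its counts were 38, 35, 35, 44 and 48 in control libraries 1 to 5 and 0 in each citalopram library. All control libraries held between 35 and 48 counts, and again no citalopram library held a read. The control mean was 41.2 ± 12.3 normalized counts (SD, n = 5), at least 68.7-fold above the floor for the citalopram group, or 13.7-fold with a floor of 3 counts in each library. It too was listed only through the control libraries. The limma difference was -5.35 ± 0.66 (SE) on the log2(normalized count + 1) scale, with an adjusted p of 0.045. It too depended on the pseudocount, and was -6.33 with 0.5 and -3.17 with 5. This call was lost in 8 of 10 fits with 1 library left out, namely those without citalopram library 1, 3 or 5 or without any 1 of the control libraries, where the adjusted p reached 0.90, and with robust variance estimation, where it was 0.30.

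A transcript with the third smallest p did not pass, with an adjusted p of 0.51 by limma. It had counts of 109, 112, 77, 92 and 95 in control, and 32 in citalopram library 4 with 0 in the other 4 citalopram libraries. Here too the groups did not overlap, but 1 citalopram library held reads below the lowest control library.

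None of the transcripts with a higher level passed the test with all libraries. Without control library 4, limma called 1 that was higher. Without the 3 libraries highest on the first component, 1 of 5 calls was higher. Both settings left out control library 4, so they are not separate results. The higher transcripts with the smallest p in the stated test are given by their values. ENSDART00000141973.2 had counts of 195, 129, 144, 50 and 48 in citalopram libraries 1 to 5. In control it had 46 in library 4 and 0 in the other 4 libraries. The lowest citalopram library, at 51.6 normalized counts, stood just above the only control library with reads, at 49.1. The mean was 106 ± 49.6 with citalopram and 9.82 ± 21.96 in control (SD, n = 5), a log2 ratio of the means of 3.44. Its limma difference was 5.47 ± 1.06 (SE) on the log2(normalized count + 1) scale, with an adjusted p of 1.0.

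ENSDART00000152490.3 differed by less but was even between libraries. Its counts were 130, 119, 113, 104 and 112 with citalopram and 90, 77, 100, 58 and 60 in control. In normalized counts the citalopram libraries ran from 106 to 131 and the control libraries from 61.9 to 104, so that the groups came close without overlapping. The means were 114 ± 9.89 and 76.8 ± 16.6 normalized counts (SD, n = 5), and the limma difference was 0.58 ± 0.16 (SE) with an adjusted p of 1.0. All 10 libraries held reads, and the log2 ratio of the means, 0.57, was just under the limit of 0.6. Another transcript with a higher mean had counts of 175, 127, 124, 125 and 96 with citalopram against 59, 0, 78, 0 and 0 in control, an example in which the treated libraries agreed closely and the control libraries split between reads and none.

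**Figure D4:**
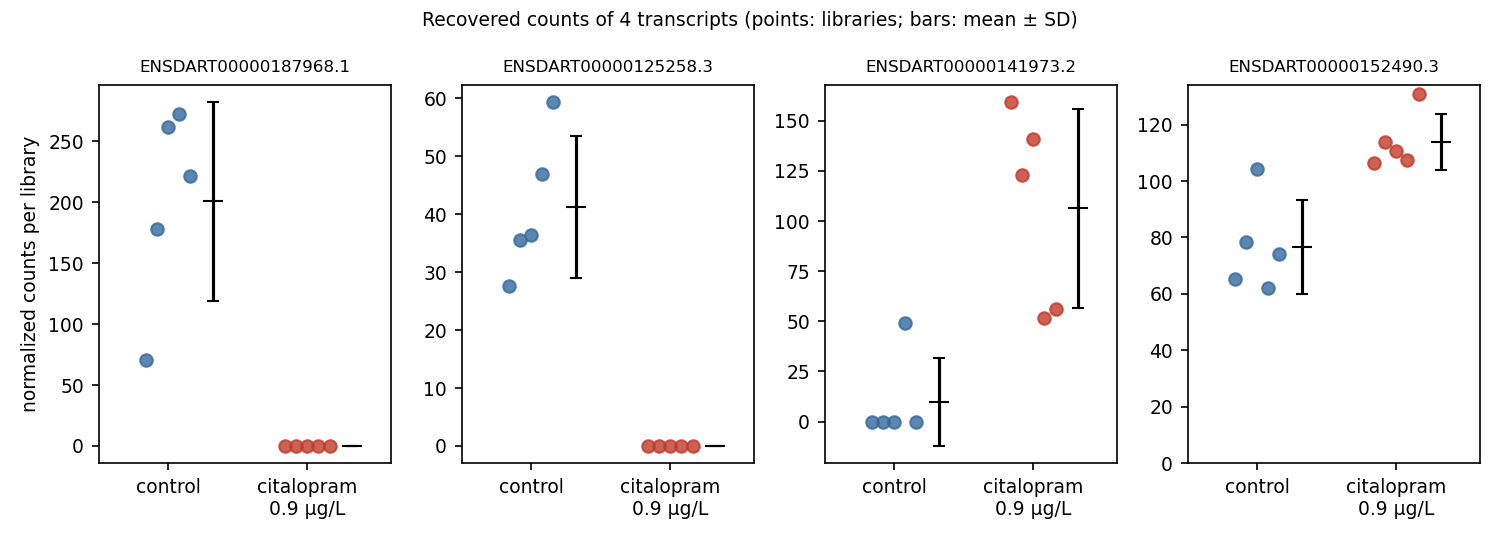
Recovered normalized counts of 4 transcripts in each control library (blue) and each citalopram 0.9 μg/L library (red), with the mean and SD of each group in black and a linear axis of its own in each panel. The 2 transcripts on the left were at 0 in all 5 citalopram libraries against control means of 201 and 41.2, and the 2 on the right had higher citalopram means, 106 against 9.82 and 114 against 76.8.

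The same 4 transcripts were read at the other concentrations, which were compared with the same control libraries, so that their ratios are not independent. For ENSDART00000187968.1 the mean was 288 normalized counts at 0.03 μg/L, against a control mean of 206 in that table. With 250 μg/L it was 284, against 200.4. Every solution of the counts gave reads in all 5 libraries at both. At 50 μg/L its mean was 32.4, from 168 counts in 1 library and 0 in the other 4. The transcript was thus at 0 in all libraries exposed to 0.9 μg/L, in 4 of 5 exposed to 50 μg/L and in none of the lowest and highest concentrations. The counts of ENSDART00000125258.3 were 82, 132, 0, 35 and 0 in the 5 libraries exposed to 0.03 μg/L. With 50 μg/L they were 7, 0, 72, 44 and 74. With 250 μg/L they were 54, 57, 89, 11 and 89. It held reads in some or all libraries of every other concentration.

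For ENSDART00000141973.2 the means at 0.03, 50 and 250 μg/L were 200.3, 137 and 175 normalized counts, with reads in 4 of 5 libraries each time. The 1 control library with reads stood beside 4 at 0 in all 4 comparisons, since these are the same libraries. For ENSDART00000152490.3 they were 94.7, 100.1 and 109 normalized counts, against control means of 78.6, 78.3 and 76.6. At 0.9 μg/L the level of the former, 106 normalized counts, lay below those of the other concentrations, and that of the latter, 114, above them. Each table was normalized on its own, and these differences between concentrations were not tested.

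Few transcripts separated the groups completely. All 5 citalopram libraries lay above all 5 control libraries for 20 of the 16904 transcripts, 0.118%, and below them for 26, 0.154%. Of these 46, 27 were also past 0.6 with a mean above 0 in both groups, 10 higher and 17 lower. Reads in all 10 libraries were found for 15 of the 27, with log2 ratios from 0.60 to 0.92 in the 5 that were higher and from -1.32 to -0.64 in the 10 that were lower. The smallest unadjusted p by limma among these 15 was 0.0015, and none passed after adjustment. How many transcripts would separate by chance was not worked out, so these counts are a description only.

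Among the 1279 transcripts past 0.6 that had recovered counts, 620 higher and 659 lower, 889 had at least 1 library at 0, or 69.5%. Over all transcripts with recovered counts the share was 13.7%, 2311 of 16904. When any 1 library was left out, 954 to 1072 of the 1279 stayed past 0.6 in their direction, and 428, or 33.5%, stayed past it whichever library was left out. Of those 428, 213 were higher and 215 lower, and 97 had reads in all 10 libraries. For the others, leaving out some 1 pool brought the ratio within 0.6 or turned it.

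The most extreme ratios were then read among transcripts with a mean over both groups of at least 100 normalized counts. The 10 highest log2 ratios ran from 1.52 to 2.82 and the 10 lowest from -2.67 to -1.25, and counts were recovered for 4 and 7 of them. All 4 of the former and 6 of the latter had a library at 0. The lowest ratio came from counts of 434, 0, 287, 271 and 160 in control and 0, 181, 0, 0 and 0 with citalopram, so that reads were present in 4 control libraries and 1 citalopram library. The second lowest, -1.98, came from 308, 129, 296, 215 and 101 counts in control and 127, 0, 0, 52 and 86 with citalopram. Here all control libraries held reads and the groups did not overlap in normalized counts, the only such case among the 11 with recovered counts. Another of the lowest ratios, -1.58, came from 1613 counts in control library 1, beside 20 to 86 in the other control libraries and 44 to 234 with citalopram. Without that library the control counts lay within or below the range of those with citalopram.

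On the higher side, 1 transcript had 313, 0, 326, 260 and 201 counts with citalopram and 0, 246, 0, 0 and 0 in control, a log2 ratio of 2.11. Reads were thus present in 4 citalopram libraries and in 1 control library, at about the same level in each. A second, with a log2 ratio of 2.25, had 335, 0, 239, 80 and 240 counts with citalopram and 17, 117, 0, 0 and 42 in control. The smallest unadjusted p by limma among the 11 extreme transcripts with recovered counts was 0.015, and their adjusted p was 1.0. The largest log2 ratio of all at this level, 2.82, came from means of 517 and 73.0 normalized counts. Its mean over both groups was above 200 normalized counts, so its counts per library were not solved for.

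A mean of exactly 0 in 1 group was seen for 66 transcripts. With citalopram 39 were at 0, and in control 27 were. Every transcript with recovered counts had at least 26.9 normalized counts in at least 2 of the 10 libraries, so a transcript at 0 in 1 group was listed only because at least 2 libraries of the other group held it, and such transcripts had to differ. What filter lies behind this was not stated in the sources used. The means in the other group had a median of 27.2 normalized counts for those at 0 with citalopram, with a range of 12.02 to 201, and a median of 25.4 for those at 0 in control, with a range of 11.9 to 258. Against a floor of 3 counts over the group, the levels were at least 20.03-fold to 334-fold lower with citalopram for the 39, and at least 19.8-fold to 430.5-fold higher for the 27. With a floor of 3 counts in each library, all of these bounds are 5 times smaller.

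Most of these transcripts were carried by few libraries. Of the 39 at 0 with citalopram, 28 had reads in 2 control libraries, 8 in 3, 1 in 4 and 2 in all 5. The 2 in all 5 are the transcripts called above. Of the 27 at 0 in control, 16 had reads in 2 citalopram libraries, 8 in 3 and 2 in 4, and the remaining 1 was not unique. No single library carried them, since each control library held reads for 16 to 21 of the 39 and each citalopram library for 11 to 15 of the 26. The next most abundant of the 39 had 408 and 263 counts in control libraries 3 and 4 and 0 in the other 3. Its control mean was 141 normalized counts.

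The most abundant transcript at 0 in control had a mean of 258 normalized counts with citalopram, which either 229, 958, 193, 0 and 0 counts or 176, 228, 355, 254 and 274 counts would give. The former would leave 2 citalopram libraries at 0 and the latter would fill all 5, so this transcript could be either kind. The next had 196, 193 and 194 counts in citalopram libraries 1, 4 and 5 and 0 in the other 2. No test is given over the 66 as a set, since the listing fixed their direction. The 65 with recovered counts were part of the limma run, and both of its calls were among them.

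**Figure D5:**
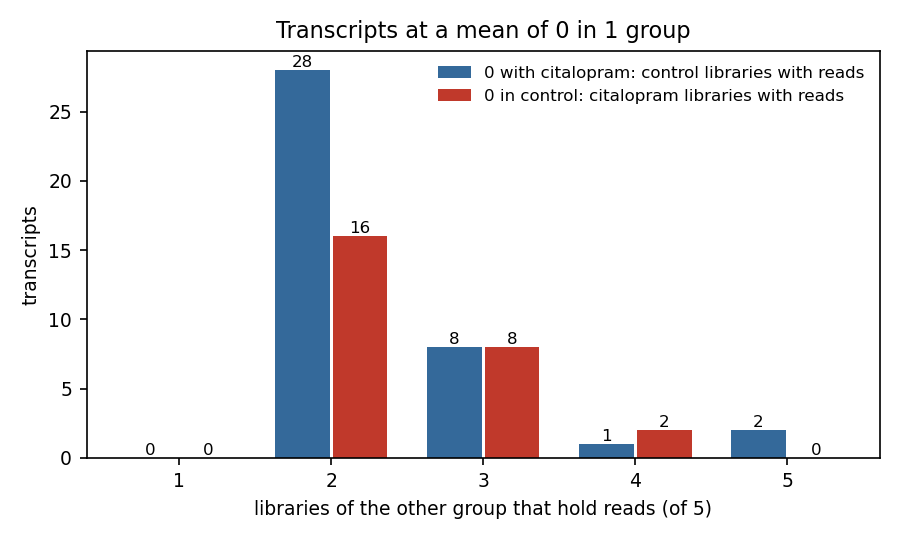
Number of transcripts (vertical axis) by how many of the 5 libraries of the other group held reads (horizontal axis), for the 39 transcripts at a mean of 0 with citalopram (blue) and 26 of the 27 at a mean of 0 in control (red). Reads in 2 libraries were most frequent on both sides (28 and 16), and reads in all 5 were seen for 2 transcripts, both at 0 with citalopram.

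The balance between the groups was similar in less complete cases. Counting libraries with reads, 4 transcripts had 4 more control than citalopram libraries with reads and 7 had 4 more citalopram than control libraries. A difference of 3 libraries was seen for 41 and 40 transcripts. Among transcripts whose counts were unique, a difference of 5 was seen for the 2 called transcripts. The transcript with a mean of 258 at 0 in control could be another, in the opposite direction.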

How the data were processed

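Total RNA of pooled whole embryos was sequenced by the study after ribosomal RNA depletion. Per the labels and the study's methods, the authors corrected reads with rCorrector, trimmed them with Trimmomatic, used Salmon to estimate counts per transcript from the GRCz11 Ensembl set of coding and non-coding RNAs with decoys, and ran DESeq2 within Trinity for each concentration against the same controls. What filter decided the listed transcripts was not stated in the sources used. The deposited group means are a signal that is never negative, in normalized counts. The deposited tables also hold the authors' log2 fold changes, standard errors, test statistics and p-values, which were not used. The labels' treatment text names other drugs, and the sample titles, which name citalopram, were followed.

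Ratios are of deposited means. Fold bounds against a mean of 0 used a floor of 3 counts over the 5 libraries (a mean of 0.6). Counts per library were solved for by lattice reduction and enumeration of all whole, non-negative counts, within 1.2e-13 of a mean under 100 and 7e-13 above, and kept where exactly 1 set fitted. For 144 control means with several solutions, the other tables decided. Median-of-ratios size factors of the recovered counts were 0.983 to 1.03 times those from the steps. Depth per library is known only as size factors, and replicate error only for the recovered counts. limma (trend, pseudocount of 1) compared 5 with 5 libraries. Solving and testing were run on simulated counts with a fixed spread between libraries. These did not copy groups in which some libraries held reads and others none, so testing was not checked for such transcripts.

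No test had been planned for the means. The limma test, its settings, the limit of 200 normalized counts and the 4 IDs (the smallest 2 p-values in each direction) were chosen after values were seen, and several limma settings had been looked at before 1 was taken as the stated one. Other transcripts were described by rule: the 10 highest and lowest log2 ratios from a mean of 100, the 10 largest differences, and the most abundant transcripts at 0. All members and lists were chosen with earlier results of these data known. Gene lists and cell type markers could not be applied. Alternatives were other limits, levels, pseudocounts, scalings, size factors and weights, and leaving out libraries. Python 3.11.15, numpy 2.4.6, pandas 2.3.3, numba 0.67.0, matplotlib 3.10.9, R 4.3.3 and limma 3.58.1 were used.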

Additional observations from a re-analysis of the deposited data

Results flagged for a closer look

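Among 41 groups of 5 libraries whose values were examined, 10 had 1 library far from the other 4, with a gap to its nearest neighbour above 0.71 of the group's range. Chance gives about 1 in 20 such groups where the 5 values are independent and normally distributed. Groups with reads in 1 library only are always flagged, so the 10 of 41 cannot be set against that share. Several of these transcripts were also picked for extreme ratios.

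ENSDART00000187968.1 had 162 normalized counts in 1 library at 50 μg/L and 0 in the other 4. ENSDART00000141973.2 had 49.1 normalized counts in 1 control library and 0 in the other 4. The transcript with the third smallest p had 33.0 normalized counts in 1 citalopram 0.9 μg/L library and 0 in the others. The transcript with the third smallest p among those higher had 99.0 normalized counts in 1 library at 0.03 μg/L and 84.9 in 1 library at 250 μg/L, far above the others. For the lowest log2 ratio at a mean of 100 or more, 172.9 normalized counts stood in 1 citalopram library and 0 in the other 4, and for another of the lowest ratios 1171 normalized counts stood in 1 control library. For the transcript with a log2 ratio of 2.11, 1 citalopram library was at 0 below the other 4, and 1 control library stood at 250.0 normalized counts above 4 at 0. On the second principal component, control library 5 stood apart from the other control libraries at 85.9. The causes were not tested.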

How the results depend on the processing

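The counts past 0.6 depended on the limit and the level. Of the 651 higher and 690 lower transcripts, 263 and 254 were left at a log2 ratio beyond 1, and 82 and 77 at a mean of at least 100 normalized counts. A minimum of 10, a pseudocount of 1, centring and rescaling kept both counts within 1.5 times. The counts at a mean of 0 stayed at 27 and 39 with a limit of 0.6 in place of 0. The median log2 ratio was -0.00032 and turned sign to 0.0010 at a mean of at least 100 and to 0.00081 when rescaled. The normalization places this median near 0, and its own spread was not worked out. With a floor of 3 counts in each library, the largest fold bound was 86.1 in place of 430.5. With 1 library left out, limma called 1 to 3 transcripts, 633 to 831 recovered transcripts were higher and 686 to 985 lower by more than 0.6 (620 and 659 with all libraries), 954 to 1072 of the 1279 past 0.6 stayed past it, and 26 to 88 were at 0 in control and 39 to 137 with citalopram, as fewer libraries give more transcripts at 0. Without the 3 libraries highest on the first component, more of them control than citalopram, 188 were at 0 in control and 72 with citalopram. In this setting 998 were higher and 976 lower by more than 0.6, and limma called 5, both stated calls among them. limma called 1 with robust variances, 0 with voom weights and 0 of the 14593 transcripts with reads in all 10 libraries. Of these 14593, 205 (1.40%) had an unadjusted p under 0.05 by limma, again no excess. The cause of the loss under voom was not tested. No paired analysis was possible because the recovered libraries carry no replicate number. Transcripts from 200 normalized counts upwards were not tested.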
